A study of Camellia japonica and Camellia azalea with 81 samples.

Results

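The 150 genes described here had the steadiest transcript levels through the year in leaves of 2 evergreen shrubs, Camellia japonica and Camellia azalea. They were chosen from 41952 gene IDs listed for both species. Each table of TPM (a share of all transcripts, corrected for gene length and set to a fixed total per library) was scaled by the median of ratios, which divides each library by its typical ratio to the average leaf library. An ID was eligible with at least 20 scaled TPM in every leaf library of both species, and 2789 IDs were. Eligible IDs were ranked by the larger of the SDs of log2(scaled TPM + 1) in the 2 species, and the 150 lowest were taken. The leaf values therefore chose the members and are given as a description, with no test.

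The study followed leaves of both camellias through 12 months, with 3 libraries per species and month, all labelled young leaf. Another 9 libraries came from C. japonica flower buds, 3 labelled FB-1, 3 labelled FB-2 and 3 labelled FB-3. No treatment, genotype or plant age is labelled. Since nothing states that libraries of one label were taken from separate plants, the p-values reflect only the spread among these libraries, and that spread may be technical. The rule left out 1 leaf library, labelled Feb 1, of C. japonica, so it used 35 leaf libraries of C. japonica and 36 of C. azalea. The buds and Feb 1 took no part in the choice. Libraries are named by label and number, so FB-1 2 is the second library labelled FB-1; the numbers in C. japonica are those of deposit order and serve as names only.

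In any cell, genes for basic tasks such as protein synthesis and turnover, energy supply, transport within the cell and the cytoskeleton tend to be transcribed at all times. Genes with a level that hardly moves serve as reference genes, against which other transcripts are measured by PCR. An evergreen leaf meets cold, heat, changing day length and its own ageing in one year, so many of its transcripts move with season and few remain level. The files do not pair the IDs with gene names, so neither the function of the members nor the labelled tissue could be checked against marker genes. For the same reason the lists of reference genes, proteasome, spliceosome, vesicle traffic, clock, cold response and tissue markers could not be searched. Whether any of these genes are members is unknown.

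Some libraries stood apart from their labels. Across all shared IDs, on log2(TPM + 1), the leaf library Feb 1 correlated best with the bud library FB-1 2 (r = 0.935), while its r with the other Feb libraries averaged 0.761. The bud library FB-1 1 correlated best with the leaf library Dec 2 (r = 0.982), while its r with the other FB-1 libraries averaged 0.748. The leaf library Jan 3 of C. japonica correlated best with Aug 2 (r = 0.956), while its r with the other Jan libraries averaged 0.899. Labels were kept as given, and results that rest on FB-1 1 are given with and without it. Sequencing depth is unknown, since TPM keep none. The number of IDs at 1 TPM or more ran from 22498 to 26538 in the C. japonica leaf libraries used, from 18638 to 25811 in those of C. azalea and from 23597 to 27805 in the buds.

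The steadiest member was EVM0009488, with an SD of 0.15 in C. japonica and 0.17 in C. azalea on the log2 scale. Its level in C. japonica leaves ran from 41.6 scaled TPM (May 3) over a median of 54.0 to 62.4 (Feb 2). In C. azalea it ran from 24.6 (May 1) over a median of 34.7 to 40.1 (May 2). The extremes in C. azalea thus lay within 1 month. By month, the means in C. japonica lay between 46.6 ± 3.03 scaled TPM in Oct (SD, n = 3) and 61.8 ± 0.896 in Feb (n = 2). In C. azalea they lay between 29.8 ± 3.39 in Sep and 37.4 ± 1.75 in Apr (n = 3 each).

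The next members in rank were EVM0028420, EVM0037969, EVM0013475 and EVM0041218, with larger SDs of 0.17, 0.17, 0.18 and 0.18. EVM0028420, the least abundant member in C. japonica, ran from 24.96 over a median of 30.6 to 39.4 scaled TPM there and from 26.03 over 33.4 to 46.0 in C. azalea. EVM0037969 ran from 47.8 over 59.3 to 69.1 in C. japonica and from 35.7 over 48.1 to 60.5 in C. azalea. Like the rest of the 5 steadiest, both moved by less than 2-fold from the lowest to the highest library in each species. EVM0013475 ran from 47.4 over 59.8 to 68.4 in C. japonica and from 36.4 over 55.5 to 68.4 in C. azalea. EVM0041218 ran from 26.8 over 36.2 to 45.5 in C. japonica and from 30.9 over 40.8 to 56.3 in C. azalea. Each of these 5 IDs was selected again in all 71 repeats of the rule that left out 1 leaf library. The repeats reuse the leaf values that ranked them, and 128 of the 150 members were selected in all of them. Under 12 alternative settings of the rule, given in the last section, each of the 5 was selected in 9 or 10. None of the 5 was selected on deposited TPM.

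The most abundant members had larger SDs than these 5, between 0.205 and 0.265 for the larger of each pair. EVM0040296 had the highest mean in C. japonica leaves, 333 ± 47.8 scaled TPM (SD, n = 35), and ran from 227 (Oct 1) over a median of 330 to 446 (Feb 2). In C. azalea it ran from 175 (Jun 1) over 247 to 333 (Dec 2), and all 3 Dec libraries, at 320, 333 and 314, lay above every other leaf library. EVM0010795 ran from 163 (Jul 3) over 283 to 359 (May 1) in C. japonica and from 269.8 (May 2) over 437 to 560.2 (Sep 2) in C. azalea, where it was the most abundant member. Its 3 May libraries there, at 280.3, 269.8 and 287, lay below every other leaf library, with month means from 279 ± 8.67 in May to 525 ± 54.9 in Sep (SD, n = 3 each). EVM0024427 ran from 104 over 163 to 236 in C. japonica and from 80.1 over 107 to 139 in C. azalea.

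**Figure D1:**
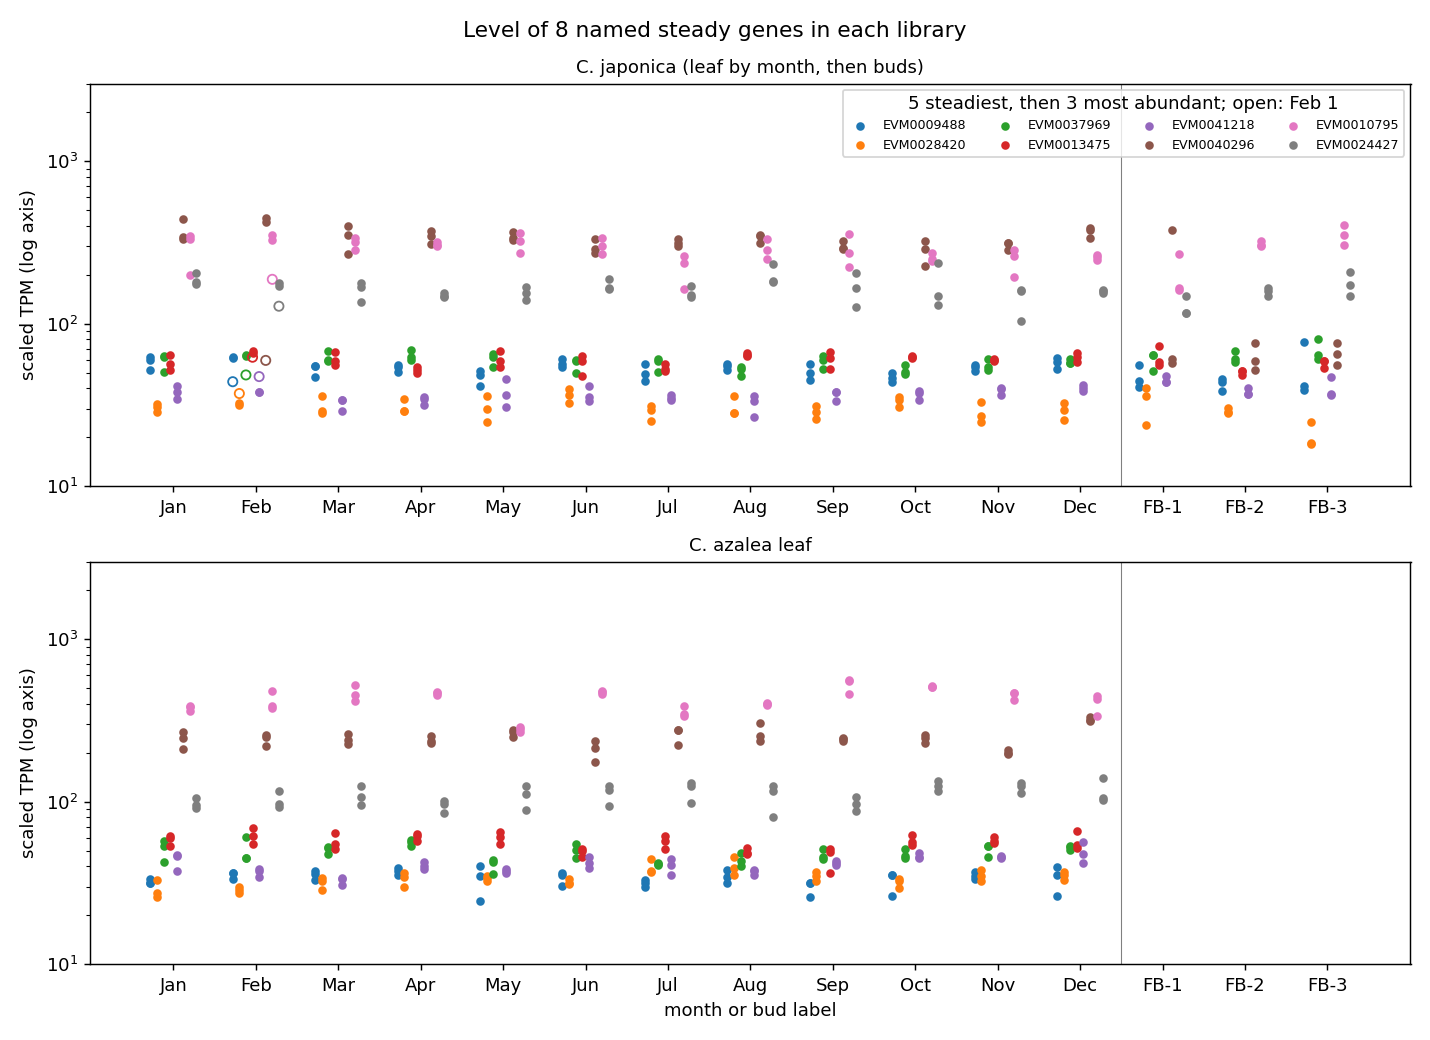
Scaled TPM (log axis) of the 5 steadiest members and the 3 members most abundant in C. japonica leaves, by month or bud label, with 1 point per library; open circles are the leaf library Feb 1 that the rule left out. EVM0009488 stays between 41.6 and 62.4 in C. japonica leaves, EVM0010795 is lowest in May and highest in Sep in C. azalea, and EVM0040296 lies below its C. japonica leaf range in 8 of the 9 bud libraries and in Feb 1.

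As a group, the members were moderately abundant. Their mean levels lay between 30.7 and 333 scaled TPM in C. japonica leaves (median 52.4) and between 27.3 and 427 in C. azalea (median 45.4). The eligible IDs had higher medians, 95.2 and 83.6. The members held between 0.740% and 1.15% of all TPM of a leaf library in C. japonica and between 0.440% and 1.28% in C. azalea. The order of the members by level was similar in the 2 species (Spearman's rho = 0.78 over 150 IDs; 0.85 over the eligible IDs), although the tables were normalized separately and no level is compared between them. Across eligible IDs, those with a larger SD also tended to have a higher level (rho = 0.55).

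The SDs of the members ran from 0.13 over a median of 0.23 to 0.28 in C. japonica and from 0.16 over 0.24 to 0.28 in C. azalea. For the eligible IDs the medians were 0.39 and 0.44. The median member differed 1.96-fold between its lowest and its highest library in C. japonica and 2.00-fold in C. azalea, against 3.05-fold and 3.47-fold for the eligible IDs. No member lay 2-fold from its own mean in any of the leaf libraries used. The larger SD came from C. azalea for 86 members and from C. japonica for 64. The limit of the list marks no gap: the last members, EVM0022806 and EVM0039153, had larger SDs of 0.276, and the first IDs outside, EVM0019672 and EVM0018453, had 0.277.

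Steadiness in one species went along with steadiness in the other only in part. Over the eligible IDs, the SDs of the 2 species correlated with a Spearman's rho of 0.66, a description in which the IDs share libraries and scaling. Of the 150 steadiest IDs of C. japonica alone, 40 (26.7% of each list) were also among the 150 steadiest of C. azalea alone. All 40 were members, which follows from the rule. Of the 150 members, 71 were on the list of C. japonica and 78 on that of C. azalea. Far outside the list, at rank 2786, EVM0006380 had the largest excess in C. azalea, with an SD of 2.57 against 0.73, and at rank 2760 EVM0007860 had the largest excess in C. japonica, with 1.32 against 0.72.

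The month means of the members, from the leaf values that chose them, are given as a description. The share of a member's variance that lay between months had a median of 45.5% in C. japonica and 59.8% in C. azalea, close to the 51.0% and 62.6% of the eligible IDs. Libraries with equal month means would give shares of 32.4% and 31.4% on average, so part of each share is spread between single libraries. The range of the month means had a median of 0.51 on the log2 scale in C. japonica and 0.59 in C. azalea, against 0.92 and 1.16 for the eligible IDs. The widest range in C. japonica was that of EVM0002490 (0.85), with libraries at 43.4, 45.8 and 39.1 scaled TPM in Jul and at 76.9 and 78.6 in Feb. In C. azalea it was that of EVM0000195 (0.93), at 32.7, 37.4 and 32.3 in Mar and at 57.1, 67.0 and 74.1 in Oct. These months were picked as the lowest and highest of 12, so their separation is set by the choice. The narrowest range in C. japonica was that of EVM0033250 (0.25), with month means between 84.6 and 101.8 scaled TPM. In C. azalea it was that of EVM0038478 (0.32), with month means between 73.9 and 92.9.

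The month most often highest or lowest was another one in each species. In C. japonica, Feb was the highest month for 39 of 150 members (26%, against 16.9% of the eligible IDs), although its mean rests on 2 libraries, and Jul was the lowest for 41 (27.3% against 21.3%). In C. azalea, Dec was the highest month for 36 (24%, against 27.5% of the eligible IDs) and May the lowest for 29 (19.3% against 8.07%). The share in Dec was thus no higher than among the eligible IDs. Leaving out any single library moved none of these 4 counts by over 1.5 times. The Jul count still ran from 31 without Jul 3 to 58 without Jul 1, and the May count reached 41 without May 3. Shares of the eligible IDs were not measured without single libraries, so the excesses of members in Feb, Jul and May are not settled. The month means of the members also shifted together. Their median deviation (log2) was 0.088 in Feb and -0.136 in Jul in C. japonica, and 0.134 in Dec and -0.127 in May in C. azalea. The part of these shifts in the counts was not tested. The highest month was the same in both species for 23 members (15.3%, against 22.2% of the eligible IDs). The correlation of the 12 month means between the species had a median of 0.22 over the members and was above 0 for 110 of them (73.3%), against 0.36 and 83.7% over the eligible IDs.

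**Figure D2:**
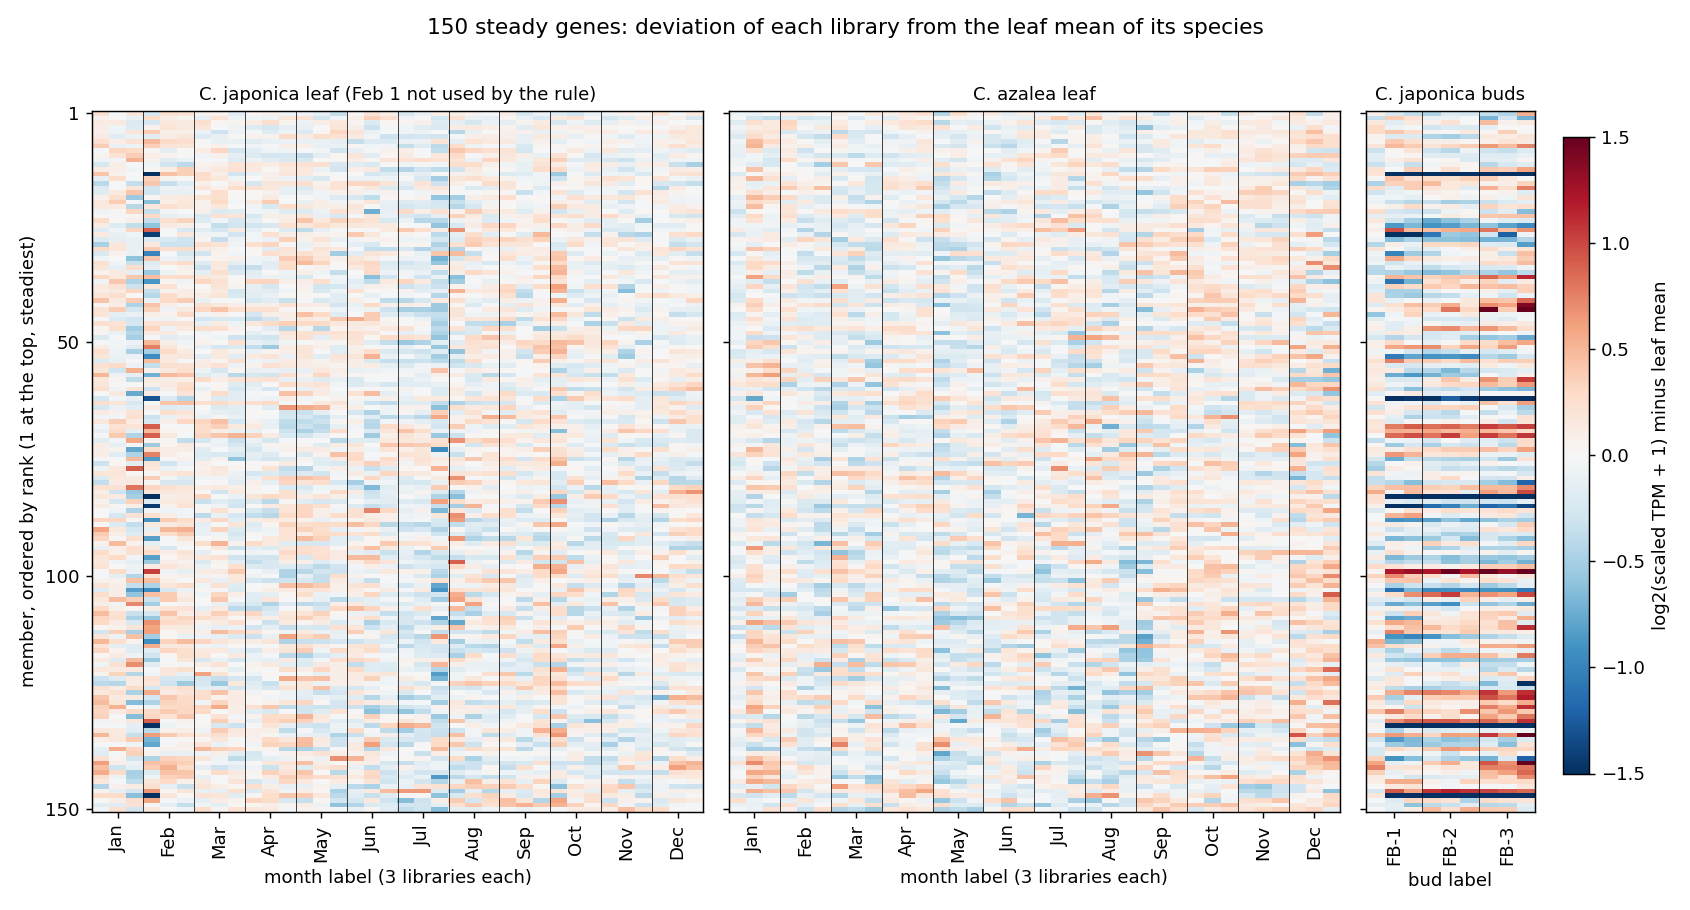
Deviation of every library from the leaf mean of its species, on log2(scaled TPM + 1), for the 150 members in order of rank; colours end at -1.5 and 1.5. The leaf panels are pale throughout except the C. japonica library Feb 1, and a few members form dark lines across 8 of the 9 bud libraries, with FB-1 1 as pale as leaf.

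The low spread of the members was measured after scaling, and was wider on TPM as deposited. On deposited TPM the median SD of the members was 0.28 in C. japonica, against 0.40 for the eligible IDs. In C. azalea it was 0.47, the same as for the next 150 IDs in rank and close to the 0.48 of the eligible IDs. The scale factors ran from 0.775 (Aug 1) to 1.18 (Mar 3) in C. japonica and from 0.504 (Dec 3) to 1.46 (Feb 3) in C. azalea. The median deviation of the members on deposited TPM ran from -0.39 (Jul 2) to 0.25 (Jan 2) on the log2 scale in C. japonica and from -0.98 (May 1) to 0.59 (Jan 2) in C. azalea. All 9 libraries of Jun, Jul and Aug in C. japonica were below 0. After scaling the range was -0.24 (Jul 3) to 0.14 (Oct 1) in C. japonica and -0.15 (May 1) to 0.16 (Dec 1) in C. azalea. When the rule was run on deposited TPM, 7 of the 150 members were selected again. With quantile normalization, which gives every library the same distribution of values, 71 were. On deposited TPM, 71 members fell under 20 TPM in at least 1 leaf library, so 79 met the minimum there.

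**Figure D3:**
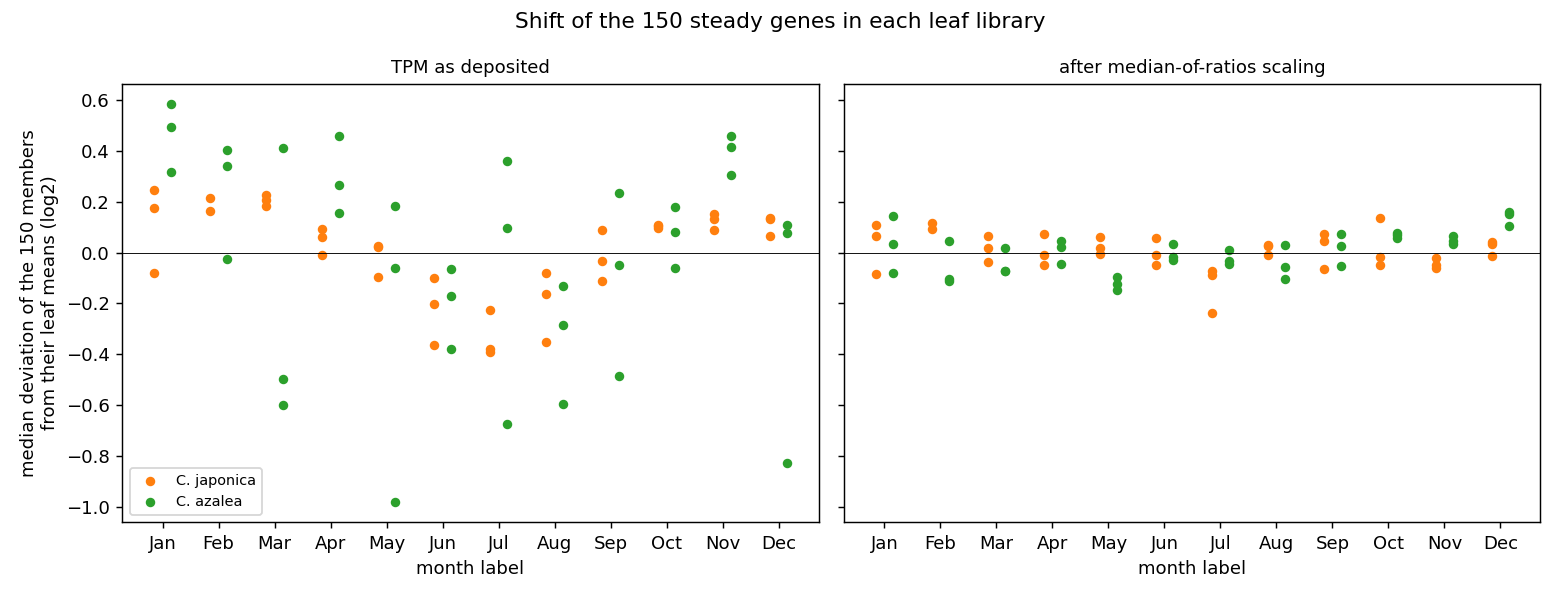
Median deviation of the 150 members from their leaf means (log2) in each leaf library used, by month, on deposited TPM (left) and after median-of-ratios scaling (right), with 1 point per library. Deposited values spread from -0.98 to 0.59 and scaled values from -0.24 to 0.16.

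Single libraries held many of the largest deviations. In C. japonica, Jul 3 was the library farthest from the mean for 25 members, Aug 1 for 23 and Jan 3 for 21. In C. azalea, Dec 3 was farthest for 24 and Sep 1 for 16. Dec 3 had the lowest scale factor of C. azalea. Jan 1 of C. azalea was farthest for 0 members and had the smallest spread of deviations over the members (SD 0.12, against up to 0.33 in Dec 3). The part of these libraries in the ranking was measured by leaving each out. Between 135 (without Jan 3 of C. japonica) and 149 members were then selected again, and 128 were selected in all 71 repeats.

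The flower buds took no part in the choice, though the bud library FB-1 1 correlated best with a leaf library. The mean over the 9 bud libraries lay within 2-fold of the leaf mean for 143 of 150 members. This is a wide limit beside their leaf SDs. It lay within 0.5 on the log2 scale for 121, against 95 of the next 150 IDs in rank and 1291 of the 2789 eligible IDs. Without FB-1 1 that count was 115, against 89 and 1227. In each of the other bud libraries 59.3% to 71.3% of the members lay inside their leaf range, against 47.4% to 58.3% of the eligible IDs. The median bud minus leaf difference was -0.02 on the log2 scale, the same as for the next 150 IDs in rank and against -0.40 for the eligible IDs. The median size of the difference was 0.24, against 0.36 for the next 150 and 0.58 for the eligible IDs. The 7 members that lay 2-fold or more away were 4.67% of the members, against 13.3% of the next 150 IDs, 34.5% of the eligible IDs and 32.2% of 31809 IDs that reached 1 TPM in 3 or more libraries. No test is given for these differences, since the rule had chosen a low spread on the leaf side. Without FB-1 1 the members again numbered 7, against 16.7% of the next 150, 37.6% of the eligible IDs and 35.9% of all. On deposited TPM 11 members lay 2-fold or more away, and the share of other IDs on that scale was not measured. All 9 bud libraries held at least 20 scaled TPM for 140 members, against 132 of the next 150 and 2109 of the 2789 eligible IDs. In bulk tissue, fewer cells of a type and less RNA per cell cannot be told apart.

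The member farthest below its leaf level in buds was EVM0030619. In leaves of C. japonica it ran from 45.7 over a median of 64.5 to 95.5 scaled TPM. In the buds it was at 67.5, 10.8 and 10.6 in FB-1, at 11.1, 10.8 and 12.7 in FB-2, and at 6.83, 5.73 and 5.51 in FB-3. All bud libraries but FB-1 1 lay below every leaf library used, with a bud minus leaf difference of -2.42 on the log2 scale (-2.73 without FB-1 1). EVM0040296, the most abundant member in C. japonica leaves, was at 379 in FB-1 1 and between 51.7 and 76.0 in the other 8 buds, a difference of -2.10 (-2.39 without FB-1 1). EVM0033837 had the largest difference in the other direction, 1.25 (1.40 without FB-1 1). It ran from 36.8 over 51.4 to 76.2 scaled TPM in leaves and was at 52.2 in FB-1 1 and between 118 and 195 in the other 8 buds, which all lay above every leaf library used. Of the 7 members past 2-fold, 1 was higher and 6 were lower in buds. The lean was the same elsewhere, with 1 higher and 19 lower in the next 150 IDs and 52 higher and 910 lower among the eligible IDs.

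The spread of the members within the buds was also low, in part. The SD over the 9 bud libraries had a median of 0.24 over the members, 0.28 over the next 150 IDs in rank and 0.43 over all eligible IDs. It was at or below 0.276, the larger SD of the last member, for 98 members (65.3%), against 27.2% of the eligible IDs. Without FB-1 1 the medians were 0.203, 0.199 and 0.325, so the members no longer lay below the next 150. Down the ranks the bud SD increased, to 0.45 at ranks 1201 to 2000 and 0.79 at ranks 2001 to 2789. Across the 2789 eligible IDs, leaf SD and bud SD correlated with a Spearman's rho of 0.53 (0.49 without FB-1 1), a description over IDs that share libraries and scaling. The bud mean itself was higher at the high ranks, with a median of 53.3 scaled TPM for the members and 83.1 at ranks 2001 to 2789. Across the eligible IDs, though, bud SD and mean bud level correlated with a Spearman's rho of -0.18. The part of the level in these spreads was not tested.

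**Figure D4:**
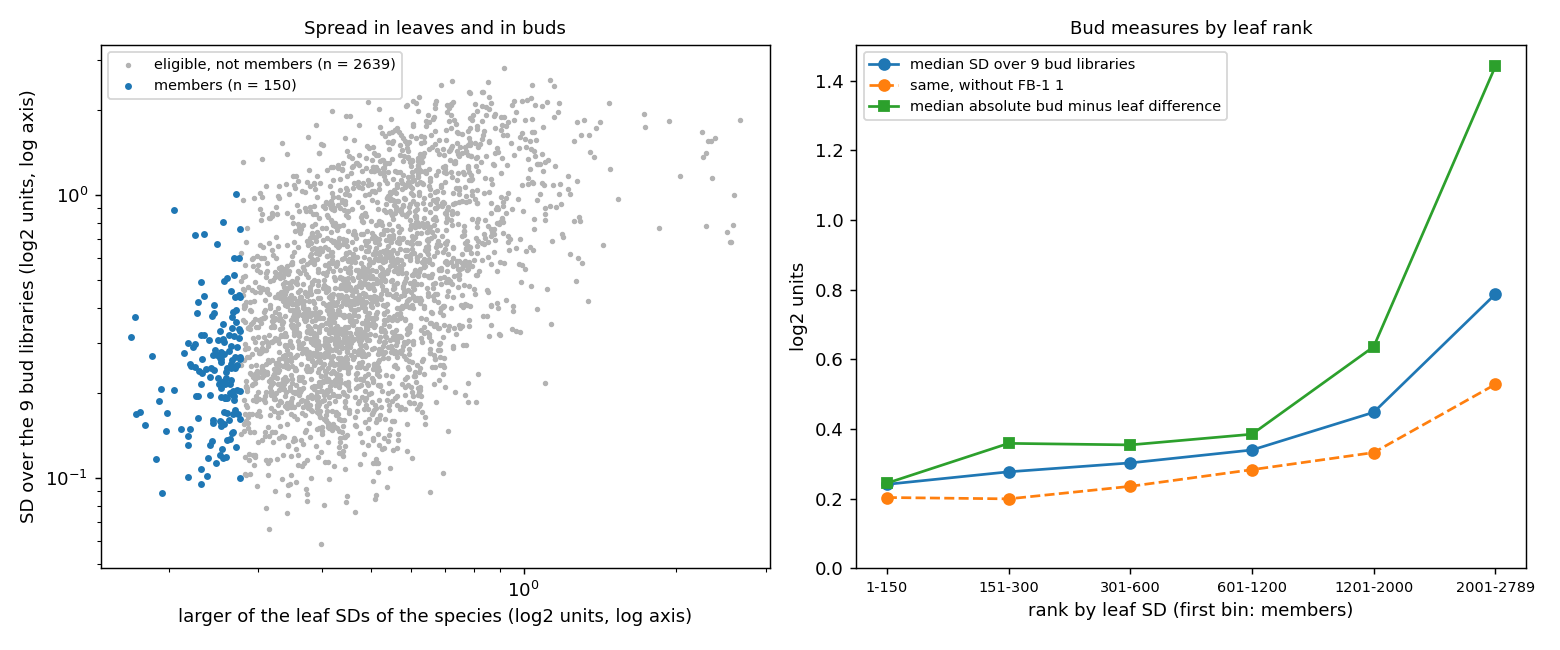
Left, the SD over the 9 bud libraries against the larger of the leaf SDs for 2789 eligible IDs (both in log2 units on log axes), members in blue. Right, medians of the bud SD with and without FB-1 1 and of the size of the bud minus leaf difference by leaf rank; the first bin holds the members, whose median difference is 0.24 against 1.44 at the last ranks.

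The bud labels were compared with limma on the 9 bud libraries. A call needed an adjusted p below 0.05 (Benjamini-Hochberg over 28674 IDs) and a log2 difference of at least 1. All 150 members passed the filter on low values. No member was called in any of the 3 comparisons, which share libraries. The background was low as well: 0.666% of all IDs were called for FB-2 against FB-1, 2.29% for FB-3 against FB-1 and 0% for FB-3 against FB-2, so a count of 0 members is no result about them. At an unadjusted limma p below 0.05, 9, 28 and 22 of the 150 members passed, against 8.23%, 21.3% and 12% of all IDs. The share of members was thus slightly above that of all IDs for FB-3 against FB-2 and slightly below it for the other comparisons. The median size of the difference was 0.16, 0.24 and 0.19 on the log2 scale over the members and 0.32, 0.51 and 0.41 over all IDs tested. Over the eligible IDs, which met the same minimum in leaves, it was 0.267, 0.453 and 0.325.

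The members with the largest differences between bud labels are given as values, since none was called. EVM0001778 was at 60.8, 63.4 and 72.5 scaled TPM in FB-1, at 72.5, 103 and 72.6 in FB-2 and at 209, 76.4 and 234 in FB-3. The FB-3 libraries spread widely, with 1 of 3 near the FB-2 libraries. The differences were 1.24 ± 0.40 (SE, limma adjusted p = 0.132) for FB-3 against FB-1 and 0.92 ± 0.40 (limma adjusted p = 0.415) for FB-3 against FB-2. EVM0030619, with the values given above, had the largest differences in the other direction, -1.59 ± 0.62 for FB-3 against FB-1 (limma adjusted p = 0.195) and -0.84 ± 0.62 for FB-3 against FB-2 (limma adjusted p = 0.608). Without FB-1 1 the values were -0.74 for FB-3 against FB-1 (limma adjusted p = 0.0341) and -0.84 for FB-3 against FB-2 (limma adjusted p = 0.0454), both under the 2-fold needed for a call. For FB-2 against FB-1, EVM0011461 had the largest positive difference, 0.86 ± 0.27 (limma adjusted p = 0.358), from 71.8, 34.95 and 45.7 in FB-1 to 88.7, 97.3 and 81.5 in FB-2. EVM0040296 had the largest negative one, -0.83 ± 0.65 (limma adjusted p = 0.836), which was 0.06 without FB-1 1.

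Without FB-1 1 many more genes were called between bud labels. For FB-3 against FB-1, limma then called 14.6% of 28380 IDs and 13.6% of the eligible IDs, but 4 of 150 members (2.67%), all higher in FB-3 (6.27% of all IDs were called higher). On adjusted p alone, 25 members (16.7%) passed, against 19.4% of all IDs and 27.2% of the eligible IDs. On adjusted p alone, the share of members was thus near that of all IDs and below that of the eligible IDs. For FB-2 against FB-1, 1 member was called (1.98% of all IDs), with 2 on adjusted p alone (2.12% of all IDs), and for FB-3 against FB-2 0 members were called (2.43% of all IDs), with 4 on adjusted p alone (3.45% of all IDs). FB-1 then held 2 libraries.

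EVM0012160 and EVM0006103 were the called members with the largest rises in FB-3 without FB-1 1. EVM0012160 was at 29.2 and 28.3 scaled TPM in the remaining FB-1 libraries and at 89.1, 46.3 and 106 in FB-3, which is a rise of 1.37 ± 0.34 (log2 ± SE; limma adjusted p = 0.0338). All 3 FB-3 libraries lay above both FB-1 libraries, and FB-1 1 lay above the FB-3 libraries at 111. With FB-1 1 the difference was 0.73 (limma adjusted p = 0.465). Its leaf levels ran from 79.1 over 109 to 153. EVM0006103 was at 36.4 and 47.0 in FB-1, with 67.7 in FB-1 1, and at 101, 90.8 and 119 in FB-3. The difference was 1.296 ± 0.165 (limma adjusted p = 0.00452) and with FB-1 1 it was 1.06 ± 0.23 (limma adjusted p = 0.0567). EVM0010795, described above for its high level, was also called for FB-3 against FB-1, from 160 and 166 in the remaining FB-1 libraries to 349, 304 and 406 in FB-3 (1.10 ± 0.16, limma adjusted p = 0.00764). The fourth, EVM0039846, is named after its values were seen (1.26 ± 0.33, limma adjusted p = 0.0366). The 1 member called for FB-2 against FB-1 was EVM0011461 (1.13 ± 0.19, limma adjusted p = 0.0357).

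FB-1 1 also stood apart from the other buds in its position relative to the leaves. The members' values lay inside the range of the 35 leaf libraries for 137 members in FB-1 1, and for 89 (FB-3 3) to 107 (FB-2 3) members in the other 8 bud libraries. Of the eligible IDs, 92.7% lay inside in FB-1 1 and 47.4% to 58.3% in the other 8, against 91.3% and 59.3% to 71.3% of the members. In FB-3 3, 24 members lay 2-fold or more from their leaf mean, against 7 to 13 in the other bud libraries apart from FB-1 1, which had 0.

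The leaf library Feb 1, which the rule left out, held most members within 2-fold of their level in the other leaf libraries. It lay 2-fold or more from the leaf mean for 8 of 150 members (5.33%), against 18% of the next 150 IDs in rank, 39.5% of the eligible IDs and 39.8% of 29019 IDs that reached 1 TPM in 3 or more leaf libraries. The members past 2-fold numbered 19 on deposited TPM and 17 with quantile normalization. Shares of the other IDs under these scalings were not measured, so these counts have no background. Inside the range of the other leaf libraries were 97 members (64.7%), with 29 below it and 24 above. The count inside was also 97 for the next 150 IDs, and 53.5% of the eligible IDs lay inside. The largest differences were those of EVM0040296, at 59.4 scaled TPM (-2.45 on the log2 scale), and of EVM0033837, at 104.9 (1.04). Feb 1 and the buds are set against the same 35 leaf libraries here, so these differences share their controls. With 1 library there is no replicate check.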

How the data were processed

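Leaves of both species and buds of C. japonica were profiled by RNA sequencing in 81 libraries. TPM deposited by the authors, in 1 table per species, sum to 1000000 per library. Per the submitters' processing notes, the tools were HISAT2 2.1.0 and StringTie 1.3.6; how they were set, and on which genome build and gene models, is not given in the sources used here. Columns were tied to libraries by the code in the sample title. The IDs have no names in the files.

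The members and lists were chosen with earlier results of these data known. Scale factors came from the leaf libraries the rule used, and bud libraries and Feb 1 were set against the same average. The minimum of 20 TPM was applied to scaled values. Tests used limma 3.58.1 in R 4.3.3 on log2(scaled TPM + 1) with a mean-variance trend, on IDs with at least 1 TPM in at least 3 of the 9 bud libraries, two-sided, and were checked on simulated data. Named members were the 5 steadiest, the 3 most abundant, those at the limit of the list, and the extremes of each comparison. Fold changes on this scale understate changes of low values. Alternatives were other scalings, minimums, pseudocounts, measures of spread, filters and left-out libraries.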

Additional observations from a re-analysis of the deposited data

How the results depend on the processing

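Which genes counted as steady depended on the scaling and the minimum. Of the 150 members, 7 were selected again on deposited TPM, 71 with quantile normalization, 79 with the minimum of 20 on deposited TPM, 62 with a minimum of 10 TPM, 41 with 40 TPM, 42 with 1 TPM, 91 by median absolute deviation and 92 by the SD of month means. A higher minimum removes members and a lower one adds steadier IDs by construction; for the other choices the cause was not tested. With size factors from all 45 columns, pseudocounts of 0.1 and 5, or the library Feb 1 kept, 147, 146, 140 and 130 were selected. No member was selected under all 12 of these alternatives, and 1 was under the 11 other than deposited TPM. Leaving out 1 leaf library gave 135 to 149 members, and leaving out Jul 3 of C. japonica and Dec 3 of C. azalea together, chosen after seeing the data, gave 131.

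Members called in FB-2 against FB-1 ranged from 0 to 1 without 1 bud library, in FB-3 against FB-1 from 0 to 4, and in FB-3 against FB-2 stayed at 0. Without FB-1 1 and with no fold threshold, a choice made after seeing the data, 2, 25 and 4 members passed. FB-3 against FB-1 gave 6 members with all 44 C. japonica libraries in the fit. The same fit called 4248 of 31809 IDs and 427 of 2789 eligible IDs. It takes its spread mostly from the leaf libraries that chose the members, so its member count is no result about them. With a minimum of 5 TPM, 1 member was called, against 756 of 20611 IDs. Calls over all IDs were 191, 657 and 0; they were 1325, 4248 and 1397 with all 44 libraries, 113, 379 and 0 with a pseudocount of 5, 84, 280 and 3 with no filter, and 71 to 562, 111 to 4154 and 0 to 691 without 1 library, the highest without FB-1 1. For EVM0040296 the difference of -0.83 in FB-2 against FB-1 ran from -1.29 (without FB-1 2) to 0.062 (without FB-1 1). The median size of the bud minus leaf difference was 0.335 on deposited TPM and 0.317 with quantile normalization, against 0.244. Members 2-fold from leaf in buds were 11 on deposited TPM, and in Feb 1 they were 19 on deposited TPM and 17 with quantile normalization. Other IDs were not counted under these scalings. Without 1 bud library the median SD over the buds ran from 0.203 to 0.253, the median bud minus leaf difference from 0.219 to 0.255, and the members 2-fold from leaf from 6 to 7.

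No paired analysis was possible because the leaf values, whose replicate numbers are labelled in C. azalea alone, chose the members and got no test, and the bud labels carry no replicate numbers. Depth is unknown, so counting error could not be set against the spreads.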
